A study of Mus musculus with 28 samples.

Results

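The 44 interferon-stimulated genes described here were chosen by name, as genes known to be switched on by interferons. Earlier results of these data were known when the list was made, so the shares of members given beside those of all genes are a description. All 44 were among the 24089 genes measured. They comprise 3 transcription factors, 2 genes of the ISG15 system, 10 sensors of RNA or DNA and OAS enzymes, 15 antiviral effectors and other induced genes, 3 genes of the PARP and Dtx3l group, 6 interferon-inducible GTPases, 4 genes of antigen processing and 1 chemokine. Naïve CD4+ CD62L+ T cells were purified with magnetic beads from the spleen and lymph nodes of adult mice on a C57BL/6 background and stimulated through CD3 and CD28. All mice carried Tgfbr1 f/f and Ert2-cre+, a Cre that acts in every tissue once tamoxifen is given. WT mice received oil and KO mice tamoxifen, so loss of TGF-β receptor I and exposure to tamoxifen cannot be told apart. Each genotype was grown in 4 cultures: medium only (control), with TGF-β, with IL-4, or with both cytokines (TGF-β + IL-4). Every one of these 8 groups had 3 RNA-seq libraries, and in each genotype the control and the culture with both cytokines also had 1 DNase-seq library. Whether the libraries of a group came from separate mice is not stated for the series, so the p-values measure the spread between these libraries.

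Interferons are secreted proteins that warn cells of infection. Type I interferons such as IFN-β signal through the receptor chains Ifnar1 and Ifnar2, and the activated kinases Jak1 and Tyk2 set off a complex with Stat2 and Irf9 that binds the interferon-stimulated response element (ISRE). IFN-γ, the product of Ifng and a main cytokine of activated T cells, signals through Ifngr1 and Ifngr2 to the gamma-activated site (GAS). The induced genes sense or degrade viral RNA, cut antigens for presentation, attack intracellular microbes or, like Usp18 and Socs1, damp the signal itself. TGF-β is known as a cytokine that restrains T cell activation and IFN-γ production.

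The columns of the RNA-seq table carry headings that conflict with other data of the study. The authors published read counts for 8 WT libraries by library number, and the genes without reads in each of these matched 1 column of the table for at least 99.8% of genes compared, whereas no other column passed 85.9%. All 8 matching columns stood at their place in the order of library numbers, but only 2 carried the heading of their library. The columns were therefore read in the order of library numbers, and every value below follows this reading. The other 4 WT and 12 KO columns had no published counts, so their culture rests on the order alone. Both readings give the same 12 WT and 12 KO columns, which leaves the genotype of each column untouched, while comparisons between cultures depend on the reading. By the headings, no comparison between cultures and no interaction called any of the 44 genes, KO against WT cells called 1 under control and 0 in each culture with a cytokine, and 11 were called over the cultures together.

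Tgfbr1, the deleted gene, had 3.02, 3.25 and 3.31 RPKM (reads scaled by gene length and by the mapped reads of the library) in WT control cells and 13.9, 14 and 14.5 in WT TGF-β cells. In KO cells it had 2.32, 2.55 and 3.05 under control and 2.37, 2.42 and 3.24 under TGF-β. With IL-4 it had 3.69, 3.48 and 3.94 in WT and 2.92, 3.75 and 3.17 in KO cells. With TGF-β + IL-4 it had 17.6, 19.5 and 20.7 in WT and 3.45, 5.18 and 3.35 in KO cells. WT libraries with TGF-β alone were far above their controls and KO libraries with TGF-β alone were not. KO libraries with TGF-β + IL-4 lay above the KO controls, replicate 2 the most. The KO controls reached up to the lowest WT controls. An RPKM of the whole gene also counts reads outside the deleted part, which limits it as a check of the deletion. T cell markers summed to between 1360 and 1740 RPKM in the WT libraries and between 1300 and 1720 in the KO libraries, and Cd4 and Cd3e were high in every library. Markers of other cells were low but differed. The sum of 4 neutrophil markers ranged from 5.48 to 118 in WT and from 0.941 to 20.4 in KO libraries, that of 7 B cell markers from 11.7 to 35.1 and from 8.33 to 26.8, and that of 4 natural killer cell markers from 1.56 to 10.0 and from 5.75 to 9.96. The sum of 7 myeloid markers ranged from 4.13 to 22.3 in WT and from 2.21 to 12.8 in KO libraries. Of the 41 markers in the table, 16 had a mean under 1 RPKM and Hbb-b1 was listed at 0 throughout. Hba-a1, also a red blood cell marker, had 9.97 and 21.9 RPKM in WT control replicates 1 and 2. It had 14.5 in WT IL-4 replicate 2 and 0 in every other library. The part of red blood cells in the comparisons with these libraries was not tested. The depth of the libraries, read from the steps between low values, lay between 0.794 and 1.66 of that of 1 reference library.

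What the members share beyond their names was looked for in their promoters. RefSeq promoters of the GRCm38.p6 build, from 250 bases before to 50 bases after the start, were at hand for 33 of the 44 genes. The core of the ISRE, spelled GAAA, any 2 bases, GAAA, on either strand, was found in 17 of these 33 promoters (51.5%), against 3.99% of the promoters of 27025 genes. A longer form, which ends in CT after the second GAAA, was in 11 of 33 (33.3%) and in 0.303% of all. The GAS, TTCNNNGAA, which reads the same on both strands, was in 9 of 33 (27.3%) against 9.55%. The longer form contains the core, and cores can overlap each other. These genes were listed because interferon induces them, so the frequency of the element describes the list and tests nothing. Usp18, Zbp1, Dhx58, Nlrc5, Iigp1, Ly6e, Mx1, Oas2, Parp9, Parp14 and Rtp4 had no promoter in the table used.

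The stretches below show the ISRE cores of 9 genes, each 60 bases long, upstream of the start and written 5′ to 3′ along the gene, with the core in capitals. The first 7 genes fell with TGF-β in WT cells, and Igtp and Irgm1 are GTPases that were not called in that comparison. Isg15 lies on the minus strand of chr4 (chr4:156200852-156200911), Oas3 on the minus strand of chr5 (chr5:120777690-120777749) and Ifit1 on the plus strand of chr19 (chr19:34640770-34640829). Gbp2 (chr3:142620589-142620648), Gbp3 (chr3:142559984-142560043) and Gbp7 (chr3:142530268-142530327) are neighbours on the plus strand of chr3. Cxcl10 is on the minus strand of chr5 (chr5:92349058-92349117), Igtp on the plus strand of chr11 (chr11:58199496-58199555) and Irgm1 on the minus strand of chr11 (chr11:48871421-48871480).
Isg15: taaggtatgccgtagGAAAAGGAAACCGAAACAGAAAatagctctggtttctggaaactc
Oas3: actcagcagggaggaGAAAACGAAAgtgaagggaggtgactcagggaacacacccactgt
Ifit1: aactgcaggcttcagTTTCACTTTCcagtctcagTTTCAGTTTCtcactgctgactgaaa
Gbp2: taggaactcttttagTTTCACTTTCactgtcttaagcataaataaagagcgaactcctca
Gbp3: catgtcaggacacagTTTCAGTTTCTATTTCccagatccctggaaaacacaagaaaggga
Gbp7: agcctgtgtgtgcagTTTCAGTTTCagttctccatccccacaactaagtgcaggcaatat
Cxcl10: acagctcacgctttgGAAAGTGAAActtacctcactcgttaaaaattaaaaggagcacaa
Igtp: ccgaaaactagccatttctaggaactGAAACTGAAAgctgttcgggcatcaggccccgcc
Irgm1: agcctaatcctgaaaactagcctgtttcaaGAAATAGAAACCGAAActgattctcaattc

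In Isg15 3 cores run into each other, the first starting 78 bases before the start of the gene, and in Gbp3 and Irgm1 2 cores overlap. In the 3 Gbp genes the core lies on the other strand and its first base is 59, 45 and 53 bases upstream in Gbp2, Gbp3 and Gbp7. Cxcl10 has its core farther away, at 213 bases. In Ifih1 and Eif2ak2 the core falls after the start, at 32 and 18 bases, and in Ddx58 at 2 bases.

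**Figure D1:**
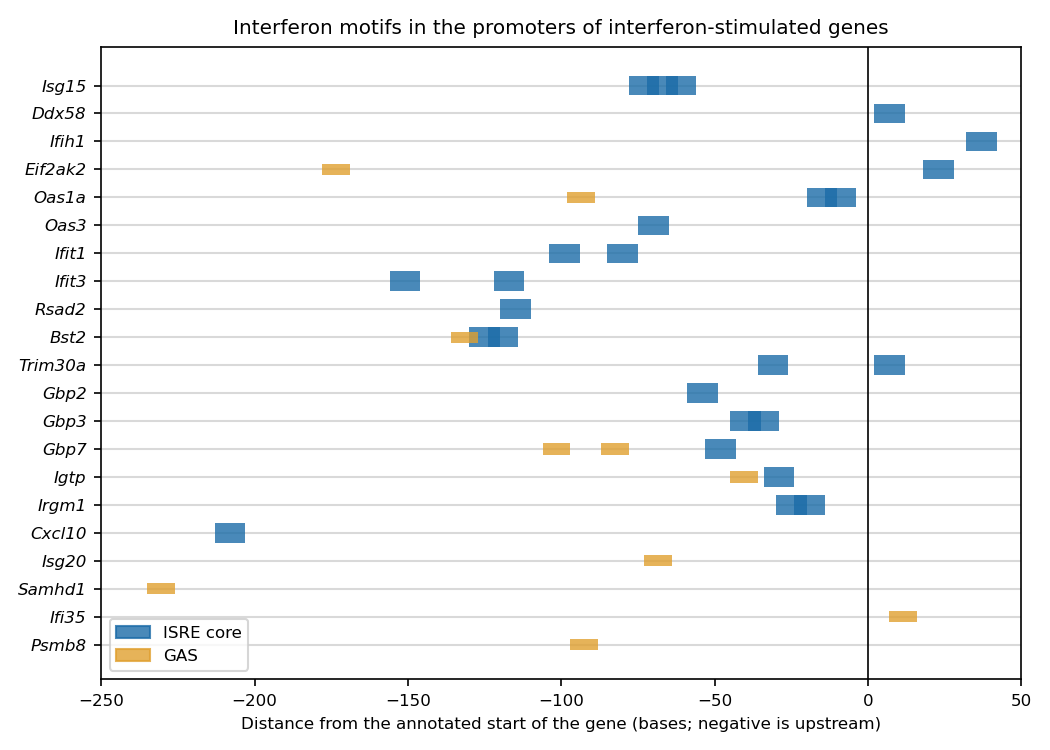
Position of ISRE cores (blue, tall) and GAS motifs (orange, short) in the promoters of the 21 interferon-stimulated genes that had either, as distance in bases from the annotated start of the gene. Most cores lie in the 130 bases before the start, and 5 genes have both motifs.

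DNase-seq marks open chromatin, and a DNase hypersensitive site (DHS) is a peak of cut fragments over the local background. A DHS of the authors' mm9 peak lists lay within 500 bp of the annotated start in 38 of the 44 genes in WT control cells (86.4%, 95% Wilson interval 73.3 to 93.6%), in 36 in WT cells with TGF-β + IL-4, in 36 in KO control cells and in 32 in KO cells with TGF-β + IL-4 (72.7%, 58.2 to 83.7%). Among all 20761 genes placed in the annotation the shares ran from 43.4 to 47.0%. Among genes with a mean of at least 1 RPKM, 35 of 38 members and 86.7% of all genes had one in WT control cells, and 29 of 38 members and 82.5% of all genes in KO TGF-β + IL-4 cells. The 4 lists differ in length, from 44298 DHSs in WT control to 27145 in KO TGF-β + IL-4 cells, each from 1 library without a replicate, and depth was not given, so the lower counts of members in the shorter lists were not tested. Intervals cover counting error only.

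A DHS stood at the start of 31 genes in all 4 lists and at that of 6 genes in none, among them Oas1a and Ifit3, which were expressed, and Oas2 and Ifi44, which were near 0. Rsad2 and Mx1, at a mean under 0.1 RPKM, had a DHS in every list, with an enrichment over background of 9.77-fold for Rsad2 in WT control cells, within the top 13.6% of that list. The DHS of Isg15, the gene with the largest difference between the genotypes under control, was weak in all lists, at 4.95-fold in WT control (top 62.7%) and 4.47-fold in KO control cells (top 55.1%). At the start of Irf7 a DHS was called in every list except KO TGF-β + IL-4, and at that of Dhx58 in the WT lists only. These DHSs were weak too. Irf7 had 5.06-fold in WT control cells (top 60.1%). Dhx58 had 3.54-fold in WT control (top 92.7%) and 3.8-fold in WT TGF-β + IL-4 cells (top 84.7%). The ISRE core lay inside a DHS of all 4 lists in 12 of the 17 genes that had one, among them Isg15, Ifit1, Gbp2, Gbp7 and Cxcl10, and inside no DHS in Oas1a, Ifit3 and Gbp3. Tap1 and Psmb9 share 1 DHS at their common start region, as do Parp9 and Dtx3l in all 4 lists. In the WT lists Dtx3l also had a stronger DHS within 500 bp of its start, at 7.62-fold in WT control cells.

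Levels ranged widely between members, and RPKM, being per length, allow this comparison. The mean over the 24 libraries was at least 100 RPKM for 7 genes, 10 to 100 for 13, 1 to 10 for 18 and under 1 for 6. Psmb8, a catalytic subunit of the immunoproteasome, was the highest with a mean of 560 RPKM, followed by the GTPase Igtp (276), the proteasome subunit Psmb9 (256), the guanylate-binding protein Gbp2 (255), the virus tether Bst2 (166), the GTPase Irgm1 (147) and the peptide transporter Tap1 (131). The 6 low genes were Mx1 (0.0854), Oas2 (0.0909), Rsad2 (0.0950), Ifi44 (0.191), Cmpk2 (0.421) and Oasl1 (0.423). These last genes are among those that rise most steeply with type I interferon, and they entered no test because of the minimum of 1 RPKM. Ifnb1, Ifna2 and Ifne were listed at 0 in all 24 libraries, and Ifna1, Ifna4, Ifna5 and Ifnk never passed 0.179 RPKM. Ifng was the only interferon gene on the list expressed above 1 RPKM.

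The most abundant genes were high in all 24 libraries. Psmb8 lay between 564 and 587 RPKM in WT cells given IL-4 alone and between 443 and 466 in those given both cytokines, and its 12 KO libraries ran from 560 to 630. All WT libraries with TGF-β were below all other libraries for this gene. Psmb9 ranged from 246 to 325 RPKM in WT and from 188 to 260 in KO libraries, so that the genotypes overlapped. Igtp ranged from 232 to 341 RPKM in WT and from 227 to 326 in KO libraries, and Irgm1 from 136 to 188 and from 106 to 160. Usp18 and Zbp1 were the highest of their roles, and Zbp1 spanned 23.8 to 62.5 RPKM in WT and 24 to 79.6 in KO libraries.

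The first question was what TGF-β did to these genes in WT cells. Each comparison used limma on log2(RPKM + 1), with only the groups compared and the genes that averaged 1 RPKM or more in them. A gene was called where the Benjamini-Hochberg adjusted p lay below 0.01 and the difference exceeded 1.5-fold, and fold changes on this scale understate those of low genes. With TGF-β, 10 genes were lower and 0 higher among the 37 members tested, against 5.71% of all 9726 genes called in either direction, 3.42% higher and 2.28% lower. The median log2 fold change was −0.34 for the members tested and 0.01 for all genes. The genes called lower were the transcription factor Irf7, Isg15, the sensors Ifih1 and Zbp1, the RNA-activated enzyme Oas3, Ifit1, Gbp2, Gbp3, Gbp7 and Cxcl10.

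Isg15, a ubiquitin-like protein that is joined to other proteins, had 18.9, 16.6 and 17.6 RPKM in WT control and 5.54, 4.21 and 6.51 in WT TGF-β cells. All TGF-β libraries lay below all controls, and the log2 fold change was −1.56 (standard error 0.13, limma adjusted p = 0.000107). Ifih1, which encodes the double-stranded RNA sensor MDA5, had 5.31, 5.12 and 5.68 RPKM in control and 1.82, 1.5 and 1.44 in TGF-β cells, a log2 fold change of −1.30 (0.08, adjusted p = 2.32e-05). Zbp1, a sensor of Z-form nucleic acids, had 56.5, 58.3 and 54.7 RPKM and then 23.8, 24.8 and 25.3, with the narrowest spread of these genes (−1.17, standard error 0.05, adjusted p = 3.74e-06). Oas3, which makes the 2-5A messenger that activates RNase L, had 3.48, 3.41 and 3.29 RPKM and then 1.11, 1.03 and 0.970. The groups did not overlap in any of these genes.

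Gbp2, a GTPase that coats vacuoles of intracellular microbes, was the most abundant of the genes that fell. It had 337, 311 and 365 RPKM in WT control and 176, 176 and 184 in WT TGF-β cells (log2 fold change −0.91, standard error 0.06, adjusted p = 4.23e-05). Its neighbours Gbp3, at −0.78, and Gbp7, at −0.84, fell by similar amounts. The family was not lower as a whole. Igtp, of the immunity-related GTPases, had 285, 255 and 325 RPKM in control and 301, 289 and 313 in TGF-β cells, and Irgm1 had 149, 142 and 165 and then 188, 171 and 185. Their libraries overlapped or were a little higher with TGF-β, and neither was called, nor was Iigp1. So 3 of 6 GTPases were lower, all of them guanylate-binding proteins. Cxcl10, a chemokine that draws T cells, had 9.03, 10.9 and 5.6 RPKM in control and 4.10, 3.43 and 3.30 in TGF-β cells, with a wide spread among controls that still left the groups apart (−1.01, standard error 0.20, adjusted p = 0.00991).

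Of the 4 genes of antigen processing none was called. Psmb8 had 654, 641 and 650 RPKM in control and 438, 440 and 432 in TGF-β cells, apart in every library but under the 1.5-fold threshold. Psmb9 had 285, 288 and 258 RPKM and then 268, 277 and 246, with overlapping groups. Bst2 had 219, 223 and 207 RPKM and then 162, 171 and 163, again apart but below the threshold. Among the genes called lower with TGF-β, 8 of the 9 with a promoter at hand carried an ISRE core. Among the tested members that were not called 7 of 19 did. The GAS was in 1 of those 9 and in 8 of those 19. With TGF-β + IL-4 in WT cells, a core was in 4 of 6 called members and in 12 of 23 others. A link between these motifs and the response was not tested. In the 8 WT libraries identified by their read counts, TGF-β against control called 10 members, 9 of them the same. By the headings of the columns it called 0 members and 0 of all genes. Markers moved with this comparison. All 3 neutrophil markers tested were called higher with TGF-β, among them S100a8 by 2.38 and S100a9 by 1.90 on the log2 scale, and so was 1 myeloid marker. The T cell marker Cd28 was lower by 0.76 and Eomes, listed here for natural killer cells, by 1.74. Of the 2 CD8 T cell markers 1 was called lower, and their sum was 24.8 to 26.9 RPKM in control and 16.6 to 17.3 in TGF-β cells. The part of these cells in the result was not tested, and in bulk RNA fewer cells of a type and less RNA per cell cannot be told apart.

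In KO cells no member was called with TGF-β. limma called 0 of the 32 tested, against 0.0105% of all genes, and 2 members had an unadjusted p under 0.05. Isg15 had 3.31, 3.58 and 4.13 RPKM in KO control and 4.14, 4.73 and 3.51 in KO TGF-β cells, and the groups overlapped. Gbp2 had 274, 313 and 300 RPKM and then 288, 296 and 267. The largest values were −0.37 for Xaf1, a pro-apoptotic factor, 0.32 for Irf7 and 0.29 for Cxcl10 (each adjusted p = 1). Over the 32 genes tested in both genotypes, the log2 fold change with TGF-β ran from −1.56 to 0.46 in WT and from −0.37 to 0.32 in KO cells, and 29 of the KO values but 10 of the WT values lay within 0.2 of 0.

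**Figure D2:**
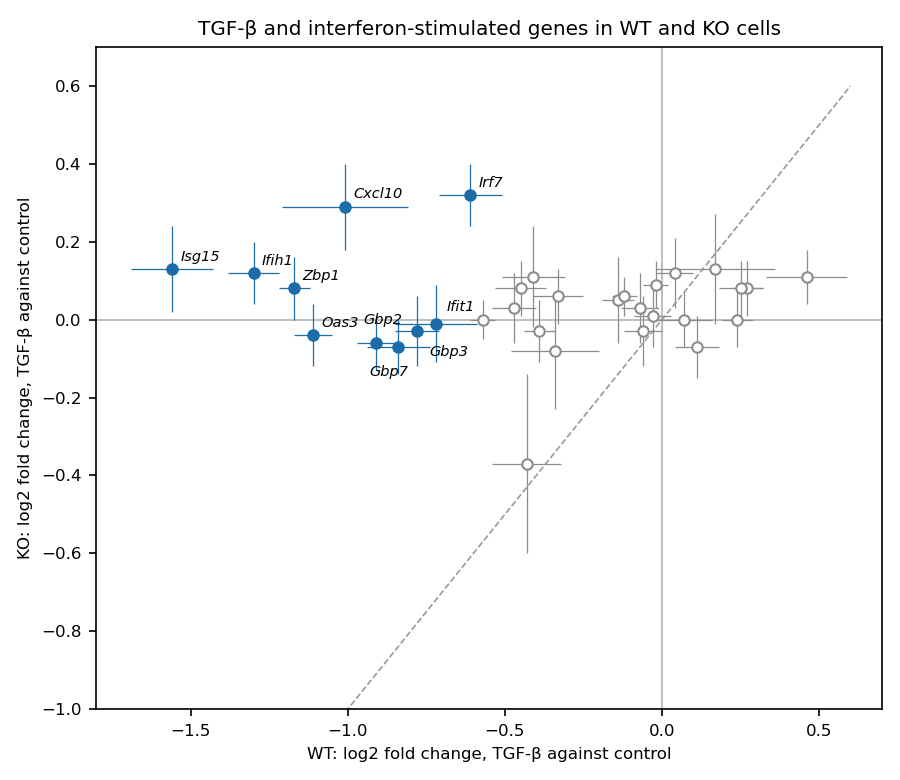
Log2 fold change of TGF-β against control in WT cells (x axis) and KO cells (y axis) for the 32 interferon-stimulated genes tested in both, with standard errors from limma; filled points were called in WT cells and the dashed line marks equal values. The called genes lie far to the left, from −1.56 to −0.61, and between −0.07 (Gbp7) and 0.32 (Irf7) on the KO axis.

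The difference between the genotypes in the TGF-β response was tested as an interaction. It was positive, that is, the change with TGF-β was higher in KO than in WT cells, for 11 members and negative for 0 of the 36 tested, against 4.71% of all genes called and 1.86% called positive. They were Isg15 (1.69, standard error 0.18, adjusted p = 4.51e-05), Ifih1 (1.42), Cxcl10 (1.30), Zbp1 (1.24), Oas3 (1.07), Dhx58 (0.96), Irf7 (0.93), Gbp2 (0.85), Gbp7 (0.77), Gbp3 (0.75) and Oas1a (0.70). By role they were 5 of 6 tested sensors and OAS genes and 3 of 6 GTPases, with Irf7, Isg15 and Cxcl10. Dhx58 and Oas1a, of the 5 sensors and OAS genes, had means under 1 RPKM in both KO groups and passed the minimum through the WT libraries. Of the 11, 9 were also called in WT cells alone, and the 2 comparisons share the WT libraries. A further overlap was with KO against WT control cells, where 6 of the 11 were called lower in KO cells. These were Irf7, Isg15, Dhx58, Zbp1, Oas1a and Cxcl10. In these 6 a lost response to TGF-β and a lower level before TGF-β cannot be told apart. Leaving out any 1 of the 12 libraries left 8 to 10 calls, and the headings gave 0. Of the markers, Eomes (1.65), Cd8b1 (0.67) and Cd28 (0.66) were also called in this interaction, and their part was not tested.

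The second question was how the genotypes differed with no cytokine added. In control cultures 11 members were lower in KO than in WT cells and 0 higher among 37 tested, against 2.46% of all 9644 genes called, 0.633% higher and 1.82% lower. The median log2 difference was −0.40 over the members tested and 0.02 over all genes. These values share the WT control libraries with the response to TGF-β above, so the genes on both lists are no second observation. In 5 of the 11, Irf7, Dhx58, Eif2ak2, Oas1a and Rtp4, the mean of KO cells was under 1 RPKM, so these 5 passed the minimum through the WT libraries.

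Isg15 had 3.31, 3.58 and 4.13 RPKM in KO control against 18.9, 16.6 and 17.6 in WT control cells, a log2 difference of −2.0 (standard error 0.09, adjusted p = 1.1e-05). Irf7, which drives the second wave of interferon production, had 1.01, 0.918 and 1.04 RPKM in KO and 5.89, 6.28 and 7.87 in WT cells (−1.94, standard error 0.10, adjusted p = 3.15e-05). Usp18, a protease that removes Isg15 and blocks the type I receptor, had 6.44, 8.81 and 6.85 RPKM in KO and 17, 16.1 and 20.3 in WT cells (−1.17). The KO libraries lay below the WT libraries without overlap in all 3 genes.

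Among the sensors, Dhx58, which encodes LGP2, a regulator of RNA sensing, was lower by 1.30 in log2 and had 0.467, 0.390 and 0.314 RPKM in KO against 2.37, 2.75 and 2.15 in WT control cells. Oas1a differed by −1.08, Zbp1 by −0.91 and the kinase Eif2ak2 (PKR) by −0.67. Ifih1, by contrast, had 5.33, 5.57 and 5.10 RPKM in KO and 5.31, 5.12 and 5.68 in WT control cells, with the libraries interleaved. Among effectors, Rtp4 differed by −1.04, the secreted lectin-binding protein Lgals3bp by −0.86 and Bst2 by −0.68. Cxcl10 had 2.96, 3.21 and 3.53 RPKM in KO against 9.03, 10.9 and 5.6 in WT control cells (−1.13, standard error 0.19, adjusted p = 0.00764). None of the 6 GTPases, the 4 antigen processing genes or the 3 genes of the PARP and Dtx3l group was called. Parp9, a partner of Dtx3l, had 9.74, 9.31 and 12.7 RPKM in KO and 14.2, 13.5 and 14 in WT control cells, below the fold threshold. Parp9 and Dtx3l overlap on opposite strands, as do Tap1 and Psmb9, and Smart-seq2 reads carry no strand, so reads in the shared bases cannot be assigned.

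Markers of other cells were also lower in KO control cells, among them Cd8a by 1.60, Cd79a by 1.07, Ms4a1 by 0.90 and Lyz2 by 1.75 in log2, all called. Cd8a had a WT range of 5.04 to 8.87 and a KO range of 1.14 to 3.85 RPKM over all cultures. The other CD8 T cell marker, Cd8b1, was not called. Both CD8 T cell markers summed to 24.8 to 26.9 RPKM in WT and 14.8 to 16.7 in KO control cells. The part of the markers in the lower level of the interferon genes was not tested.

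With IL-4 in the medium, 8 members were lower in KO than in WT cells and 0 higher among 38 tested (2.99% of all genes called, 0.372% higher and 2.61% lower). They were Isg15 (−1.93), Xaf1 (−1.10), Cxcl10 (−1.04), Zbp1 (−0.94), Lgals3bp (−0.69), Eif2ak2 (−0.68), Bst2 (−0.64) and Usp18 (−0.63). Eif2ak2 had a KO mean under 1 RPKM and passed the minimum through the WT libraries. Isg15 had 2.57, 5.49 and 3.10 RPKM in KO IL-4 and 17.5, 19 and 13.1 in WT IL-4 cells. Bst2 had 147, 144 and 141 RPKM in KO and 223, 223 and 226 in WT IL-4 cells. Neither gene overlapped between the genotypes. Cd8a was lower in KO cells here as well, by 1.19, whereas Cd8b1 was not called.

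Under TGF-β the direction was split. Among 35 members tested 4 were higher and 7 lower in KO cells, against 9.68% of all genes called, 3.15% higher and 6.53% lower. The higher genes were Ifih1 (1.41), Gbp7 (1.18), Gbp3 (0.78) and Gbp2 (0.66), all of which were called lower with TGF-β in WT cells, and both comparisons hold the WT TGF-β libraries. Ifih1 had 5.70, 6.45 and 5.53 RPKM in KO TGF-β against 1.82, 1.5 and 1.44 in WT TGF-β cells, without overlap. The lower genes were Irf7 (−1.01), Iigp1 (−0.77), Lgals3bp (−0.75), Ifit3 (−0.73), Usp18 (−0.65), Xaf1 (−0.64) and Ifi35 (−0.59). Irf7 had 1.34, 1.56 and 1.54 RPKM in KO and 3.68, 4.28 and 4.06 in WT TGF-β cells. Isg15, at 4.14, 4.73 and 3.51 against 5.54, 4.21 and 6.51 RPKM, was not called and its groups overlapped. Without KO TGF-β replicate 1 the call count fell from 11 to 7, with 4 higher and 3 lower. S100a8 was lower in KO TGF-β cells by 3.37, S100a9 by 2.56 and Cd8a by 1.37, whereas Eomes was higher by 1.47, and their part was not tested. Cd8b1 was not called, and both CD8 T cell markers summed to 16.6 to 17.3 RPKM in WT and 14.3 to 15.1 in KO cells.

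**Figure D3:**
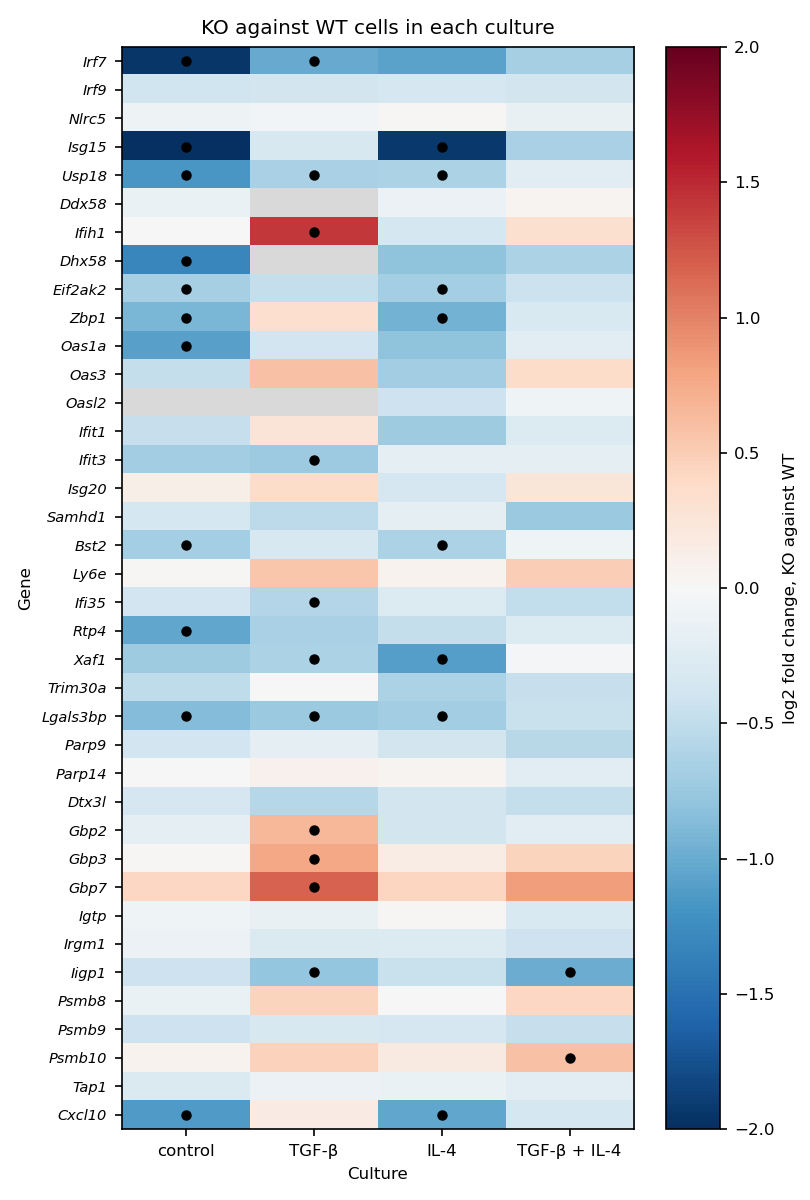
Log2 fold change of KO against WT cells (colour, blue lower and red higher in KO) in each of the 4 cultures for the 38 interferon-stimulated genes with a mean of at least 1 RPKM. Black dots mark called genes and grey cells genes that were not tested; control and IL-4 cultures hold only blue dots, and the TGF-β culture has red dots at Ifih1, Gbp2, Gbp3 and Gbp7.

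Averaged over the 4 cultures, with 3 values a genotype, the comparison does not depend on how columns are assigned to cultures, except for the numbering of the replicates. Whether a replicate number stands for a single mouse is not stated. The 3 values are therefore groupings by number, and their p-values cannot be taken to measure the spread between mice. Of 38 members tested 9 were lower and 1 higher in KO cells, against 5.08% of all genes called, 3.88% lower and 1.20% higher. Lower were Isg15 (−1.22, standard error 0.13, adjusted p = 0.000245), Irf7 (−1.17), Dhx58 (−0.77), Lgals3bp (−0.69), Usp18 (−0.67), Iigp1 (−0.66), Xaf1 (−0.62), Oas1a (−0.62) and Cxcl10 (−0.59), and Gbp7 was higher (0.71, standard error 0.13, adjusted p = 0.00308). Dhx58, under 1 RPKM on average in KO libraries, passed the minimum through the WT libraries. The headings gave 11 calls, 10 of them these. In single libraries Eif2ak2 and Bst2 were lower in all 12 KO than in all 12 WT libraries, 2 of 38 members (5.26%) against 1.61% of all genes, and 0 members against 2.05% of all genes were higher throughout. Eif2ak2 averaged under 1 RPKM in KO libraries and is among the 38 through the WT libraries. Without KO TGF-β + IL-4 replicate 2, 5 members were lower throughout, Irf9, Lgals3bp and Tap1 being the others, against 2.1% of all genes, and 0 higher against 2.14%. Without KO IL-4 replicate 2 as well, Irf7 and Dtx3l made it 7, against 2.26%, and 0 were higher against 2.17%. These libraries were left out after the members were seen to stand high in them, so these counts could only grow and support nothing. Bst2 ranged from 152 to 226 RPKM in WT and from 120 to 151 in KO libraries. Without WT replicate 1 the calls fell to 4, without KO replicate 3 to 5 and without KO replicate 1 to 6. Without KO replicate 2 there were 15, all lower. KO replicate 2 includes the libraries in which the members stood high, so these 15 support nothing. Over the cultures Cd8a was lower in KO cells by 1.42, Cd79a by 0.85 and S100a8 by 3.02 in log2, and their part was not tested. Cd8b1 was not called.

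**Figure D4:**
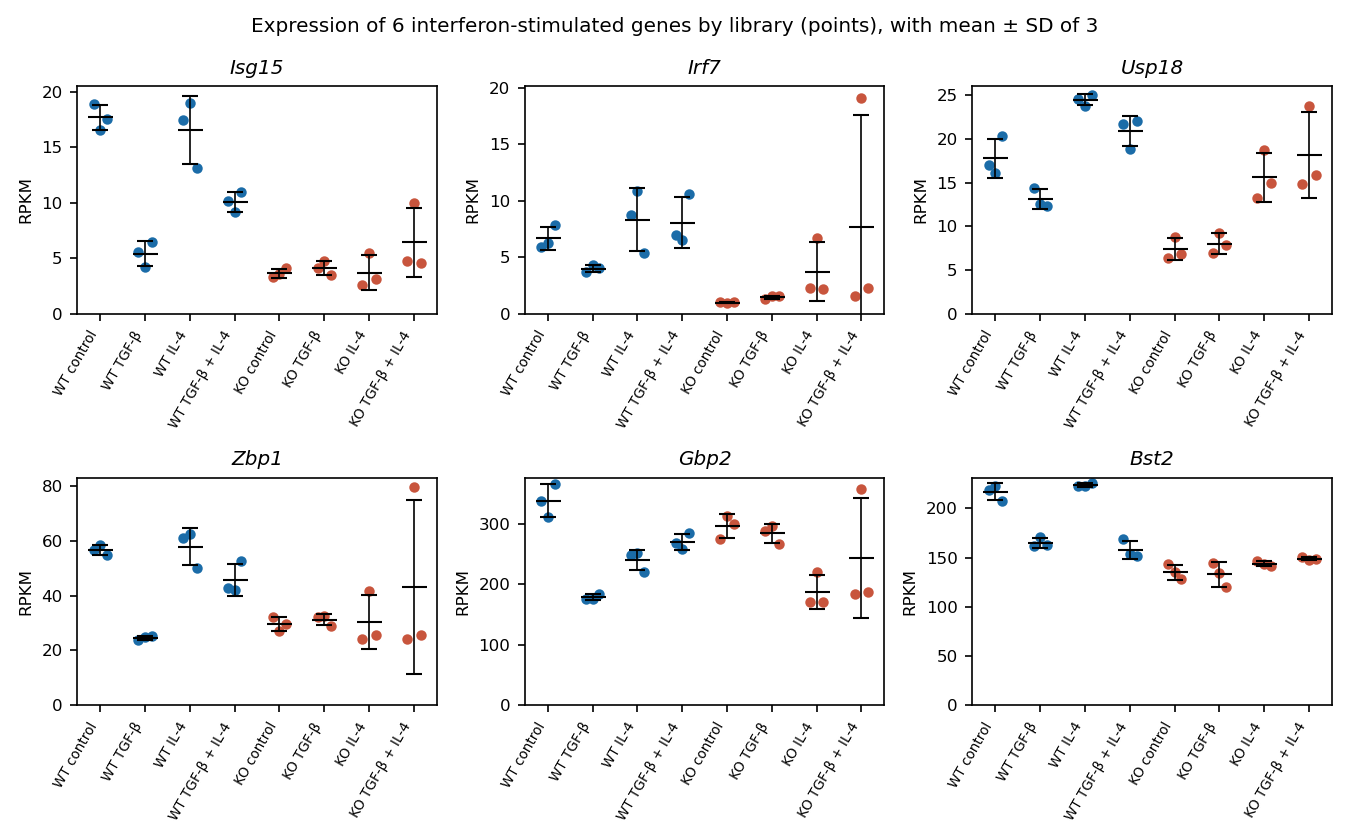
RPKM of Isg15, Irf7, Usp18, Zbp1, Gbp2 and Bst2 in each of the 24 libraries (points, blue WT and red KO), with the mean and SD of the 3 libraries of a group in black. Isg15 and Zbp1 drop with TGF-β in WT cells only, Irf7 and Usp18 are low in KO control and KO TGF-β cells, and 1 KO TGF-β + IL-4 library stands far above its group in Irf7, Zbp1 and Gbp2.

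The third question concerned IL-4, alone and with TGF-β, the condition in which naïve cells become Th9 cells. With IL-4 alone, 0 of 38 members were called in WT cells by limma, against 1.29% of all genes (0.362% lower), and 13 had an unadjusted p under 0.05. The largest values were Ifit3 at 0.58 (standard error 0.44, adjusted p = 0.554), Oasl2 at 0.54 (adjusted p = 0.301) and Gbp2 at −0.49 (adjusted p = 0.00818), which missed the fold threshold. In KO cells 1 member was higher and 2 lower of 35 tested (2.51% of all genes called). Usp18 had 13.3, 18.7 and 15 RPKM in KO IL-4 against 6.44, 8.81 and 6.85 in KO control cells (0.99, standard error 0.14, adjusted p = 0.00223), and in WT cells 24.6, 23.8 and 25 against 17, 16.1 and 20.3 (0.44, adjusted p = 0.022). Ifih1 was lower by 0.65 and Gbp2 by 0.67 in KO cells. The markers Cd28 (−0.89) and Cd5 (−0.72) were lower and Cd8b1 (0.75), Cd79b (0.78) and Zbtb46 (0.61) higher in the same comparison, and their part was not tested. Leaving out 1 library gave between 0 calls, without KO IL-4 replicate 3, and 5, without KO IL-4 replicate 2, and 1 call without KO IL-4 replicate 1 or KO control replicate 2. The interaction of genotype and IL-4 called 0 of 38 members by limma (0.0414% of all genes), with 5 at an unadjusted p under 0.05. The largest were Irf7 at 0.87 (standard error 0.42), Rtp4 at 0.57 (0.56) and Usp18 at 0.55 (0.18), and a difference between the genotypes in the IL-4 response was not shown.

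With TGF-β + IL-4, 2 members were higher and 4 lower than control in WT cells, of 38 tested (9.27% of all genes called, 6.43% higher and 2.84% lower). Ifih1 (−1.0), Xaf1 (−0.88), Isg15 (−0.75) and Oas3 (−0.71) were lower, and Ifit3 (0.91) and Oasl2 (0.69) higher. Without WT TGF-β + IL-4 replicate 3 there were 0 higher and 4 lower, and 0 were higher with all libraries in 1 fit, with no minimum or with a minimum of 5 RPKM. Isg15 had 10.2, 9.19 and 11.0 RPKM, between the controls at 16.6 to 18.9 and the TGF-β cells at 4.21 to 6.51, and overlapped neither. Ifit3, which supports Ifit1 in binding viral RNA, had 5.72, 5.58 and 9.18 RPKM against 2.54, 2.76 and 4.10 in control cells. Zbp1, at 42.7, 41.9 and 52.5 RPKM, and Gbp2, at 268, 258 and 284, were below the controls in every library but were not called. The 3 WT comparisons with control share the same control libraries. S100a8 was higher by 3.02, S100a9 by 2.85 and Elane by 2.18 in this comparison, and their part was not tested.

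In KO cells TGF-β + IL-4 raised Usp18 (1.18, standard error 0.18, adjusted p = 0.00769) and lowered Ifih1 (−0.67, adjusted p = 0.00771) among 36 members tested (1.92% of all genes called, 1.27% higher and 0.642% lower). Usp18 had 14.8, 23.8 and 15.9 RPKM against 6.44, 8.81 and 6.85. The largest values were Irf7 at 1.49 (adjusted p = 0.339), Ifit3 at 1.41 (0.478) and Oasl2 at 1.19 (0.417), none of them called. Here Cd28 (−0.85) and Cd5 (−0.83) were lower and Cd8b1 (0.76) and Cd79b (1.23) higher, and the part of these markers was not tested. Both calls were lost without KO TGF-β + IL-4 replicate 1 or 3 or any 1 control library, and without KO TGF-β + IL-4 replicate 2 there were 3 calls. With the replicate number as a block 1 of the 2 calls was left. Against WT cells in the same culture, Iigp1 was lower (−0.99, standard error 0.17, adjusted p = 0.00288) and Psmb10 higher (0.59, adjusted p = 0.000711) in KO cells, 2 of 38 members against 8.44% of all genes, 2.71% higher and 5.73% lower. Iigp1, an immunity-related GTPase, had 26.3, 38.9 and 23.1 RPKM in KO and 55.4, 57.4 and 61.9 in WT cells, without overlap. Gbp7 (0.83, adjusted p = 0.0847) and Samhd1 (−0.75, adjusted p = 0.125) were not called. Among the markers Cd8a (−1.52), S100a8 (−3.95), S100a9 (−3.35) and Elane (−1.89) were lower and Eomes (0.90) and Ncr1 (0.74) higher in KO cells, and their part was not tested. Cd8b1 was not called, and both CD8 T cell markers summed to 25.3 to 26.8 RPKM in WT and 26.3 to 28.4 in KO cells. The interaction of genotype and TGF-β + IL-4 was positive for Isg15 (1.35, standard error 0.29, adjusted p = 0.00826) and Bst2 (0.59, adjusted p = 0.000459) among 38 members, against 4.18% of all genes, 1.4% positive and 2.78% negative. Irf7 (1.27, adjusted p = 0.317), Usp18 (0.95, 0.015) and Oas3 (0.85, 0.102) were not called. Leaving out 1 library gave between 0 and 5 calls there. It gave 0 without WT control replicate 1 or 2, WT TGF-β + IL-4 replicate 2 or 3, or KO control replicate 3, and 1 without WT TGF-β + IL-4 replicate 1 or KO control replicate 1. It gave 4 without KO TGF-β + IL-4 replicate 1, all positive, and 5 without replicate 2, of which 3 were positive and 2 negative.

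In KO TGF-β + IL-4 replicate 2, 23 of 38 members were more than 1.5 times as high as in both other libraries of the group, against 4.17% of all genes, and in KO IL-4 replicate 2 it was 10 of 38 against 1.46%. The 10 genes were all among the 23. By role the 23 comprised all 3 transcription factors, both genes of the ISG15 system, 6 of 8 sensors and OAS genes, 6 of 11 effectors, 2 of 3 PARP and Dtx3l genes, 3 of 6 GTPases, Cxcl10 and none of the 4 antigen processing genes. Ifit3 had 29.7 RPKM in this library against 2.20 and 2.12 in the others, Rtp4 15 against 1.64 and 0.992, Oasl2 9.27 against 0.877 and 0.756, and Irf7 19.1 against 1.62 and 2.32. In KO IL-4 replicate 2 the same genes had 11.0, 5.97, 3.14 and 6.73 RPKM, each above both other libraries. Bst2, at 148 RPKM between 151 and 149, and Psmb8, at 630 next to 560 and 623, did not stand out. KO TGF-β + IL-4 replicate 2 had the lowest relative depth of the 24 libraries, at 0.794 against 1.23 and 1.32 in its group. Its neutrophil markers summed to 20.4 RPKM against 8.43 and 1.56, and its natural killer cell markers to 9.96 against 7.95 and 7.27. Its Tgfbr1 was at 5.18 against 3.45 and 3.35. The part of depth and of these cells in its high values was not tested. Without KO TGF-β + IL-4 replicate 2, KO against WT under TGF-β + IL-4 gave 15 members lower and 0 higher, where it gave 1 and 1 with it. The share of all genes called in either direction went from 8.44 to 11.3%. The members stood high in this library, so leaving it out lowered their KO values, and the 15 support nothing. Leaving out WT TGF-β + IL-4 replicate 2 gave 0 calls and leaving out any of the other 4 libraries gave 1.

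**Figure D5:**
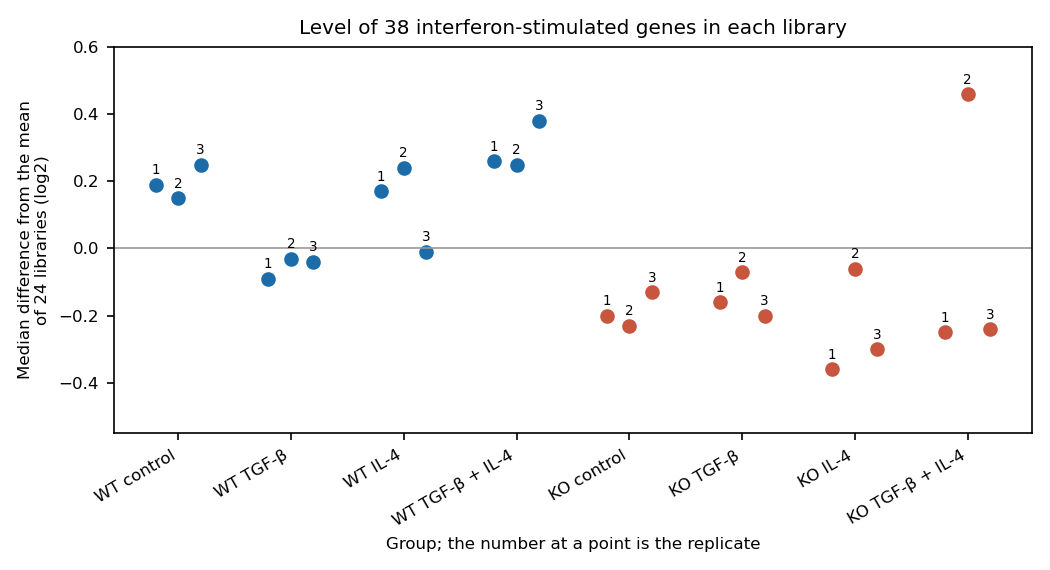
Median difference of the 38 interferon-stimulated genes from their own mean over the 24 libraries, on the log2 scale, for each library (blue WT, red KO; the number is the replicate). The KO libraries lie between −0.36 and −0.06 except KO TGF-β + IL-4 replicate 2, which is at 0.46, above every WT library.

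Of the 38 further genes of the pathway, 28 were tested in each comparison, and few were called. Ifng had 63.1, 71.6 and 60.3 RPKM in WT control and 17.1, 13.6 and 18.8 in WT TGF-β cells, a log2 fold change of −1.92 (adjusted p = 2.1e-05). In KO control cells it had 15.5, 10.7 and 9.01 RPKM, lower than in WT control by 2.40 (adjusted p = 0.000111), and in KO TGF-β cells 18.7, 14.9 and 19.9. The interaction for Ifng was 2.51 (limma adjusted p = 1.71e-05). Among these 4 groups Ifng, like Isg15, was high in WT control cells and lower in the other 3. With TGF-β + IL-4 in WT cells Ifng was also called lower than control, and its interaction of genotype and TGF-β + IL-4 was called positive. In that WT comparison 2 members were higher and 4 lower, with a median log2 fold change of 0.02. The part of Ifng in the level of the members was not tested. With IL-4 Ifng had 65.7, 80.1 and 97.7 RPKM in WT and 27.1, 21.9 and 19.8 in KO cells (−1.77, adjusted p = 0.000164).

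Receptors were seldom called. Ifnar1, Ifnar2 and Ifngr1 were called in no comparison, and Ifngr2 was higher with TGF-β + IL-4 in WT cells (0.65), and with IL-4 (0.67) and TGF-β + IL-4 (0.79) in KO cells. Stat2 was lower in KO cells under control (−0.63) and TGF-β (−0.78) and higher with TGF-β + IL-4 in WT cells (1.03), where it had 5.17, 5.11 and 6.47 RPKM against 2.17, 2.35 and 2.13. Irf8 rose with TGF-β in WT cells by 0.60 and was lower in KO cells under control (−0.59) and TGF-β (−0.98), and Irf5 was lower in KO cells under TGF-β (−0.80).

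The inhibitor Socs1, an antagonist of Jak kinases that IL-4 and interferons induce, had 137, 131 and 135 RPKM in WT control and 58.0, 60.7 and 55.4 in KO control cells (−1.19, adjusted p = 1.21e-05). With IL-4 it rose to 250, 232 and 230 RPKM in WT cells (0.82) and 183, 185 and 172 in KO cells (1.61), with an interaction of 0.80 (adjusted p = 0.000817). Socs3 was lower in KO cells under control (−0.92) and TGF-β (−0.83). Of the 28 pathway genes, 5 were lower in KO cells under control, against 1.82% of all genes, and 5 under TGF-β, against 6.53%. Under IL-4 it was 1, against 2.61%, and under TGF-β + IL-4 it was 0, against 5.73%.

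Across the 14 comparisons 23 of the 44 genes were called at least once, 15 were tested and never called, and 6 were not tested. The 23 were 60.5% of the 38 tested, against 17.4% of all genes tested, and the comparisons share libraries. Isg15 was called in 7 comparisons, Usp18 and Ifih1 in 6 each, and Irf7 and Cxcl10 in 5 each. The 15 included Irf9, a DNA-binding partner of Stat2, with 17.3, 16.2 and 18.6 RPKM in WT control and 12.6, 12.8 and 13.3 in KO control cells, Nlrc5, the activator of MHC class I genes, and the nucleotide-depleting enzyme Samhd1. They also included Ddx58, which encodes the sensor RIG-I, Isg20, Ly6e, Trim30a, Parp9, Parp14, Dtx3l, Igtp, Irgm1, Psmb8, Psmb9 and Tap1. Gbp, Ifit, Oas and Oasl genes belong to families of similar sequence, and the authors removed reads of low mapping quality, so values of closely related members are uncertain where reads map to several of them.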

How the data were processed

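Reads of both assays were aligned by the authors to mm9 with Bowtie2, and reads of low mapping quality and duplicates were removed. The deposited RNA-seq table holds RPKM, computed by the authors with edgeR, of Smart-seq2 libraries. The deposited DHS lists hold, per library and without pooling, the fold enrichment and the −log10 q of MACS2 peaks; versions are not given in the sources used here. Columns were read by library number, as described above, and by heading as an alternative. The members and gene lists were chosen with earlier results of these data known. Some genes of the pathway and marker lists are not reported here.

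Comparisons were fitted with limma 3.58.1 (R 4.3.3; moderated, with a trend) on log2(RPKM + 1) of genes with a mean of at least 1 RPKM, without a block, and tested on simulated data. For KO against WT over the 4 cultures, log2 values were averaged per replicate number. RPKM are not counts, so no count test was run. Depth is known only in relative terms, and the number of libraries limits the precision. All 44 genes were accounted for. Called genes were named with values (at least the 8 largest differences where more than 8 were called), and the 3 largest differences where fewer than 3 were called; the 6 genes with the highest mean and the highest of each role were given by library or by their range. DHS positions used the GENCODE vM1 annotation of mm9, and no peak lay past a chromosome end of that build. Promoters came from RefSeq (GRCm38.p6), and all 38 of the members' promoter sequences had 1 exact match in mm9. Python 3.11.15, pandas 2.3.3 and scipy 1.17.1 were used. The alternatives were a pseudocount of 0.1, no minimum or 5 RPKM, median-ratio scaling, an adjusted p of 0.05, a replicate block, all libraries in 1 fit, leaving out each library, and for DHSs a window of 1000 bp, −log10 q of at least 5, or the summit in the window.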

Additional observations from a re-analysis of the deposited data

Results flagged for a closer look

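The response to TGF-β differed between the genotypes, by a limma interaction fitted across all genes, in 11 members. On the log2 scale the change in KO cells exceeded that in WT cells by 1.69 in Isg15, 1.42 in Ifih1, 1.30 in Cxcl10, 1.24 in Zbp1, 1.07 in Oas3, 0.96 in Dhx58, 0.93 in Irf7, 0.85 in Gbp2, 0.77 in Gbp7, 0.75 in Gbp3 and 0.70 in Oas1a. The response to TGF-β + IL-4 differed in the same direction in Isg15, by 1.35, and in Bst2, by 0.59. Irf7, Dhx58 and Oas1a, which are on the first list, had KO means near or under 1 RPKM, where a change on this scale is understated. These 3 genes, and Isg15, Zbp1 and Cxcl10, were also called lower in KO than in WT control cells.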

How the results depend on the processing

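Of the 115 counts of called members recomputed under other settings, leaving out libraries aside, 90 stayed within 1.5 times the reported one. The 90 include counts of 0 that stayed at 0, for IL-4 in WT cells, TGF-β in KO cells and the interaction with IL-4. Such counts say nothing on the stability of calls. The 76 called values kept their direction except in 4 cases. Those 4 were all with the columns as headed, namely Gbp3 with TGF-β in WT cells (0.02), Gbp2 with IL-4 in KO cells (0.27), and the interaction of genotype and TGF-β for Irf7 (−0.08) and Dhx58 (−0.11). As headed, every comparison of cultures and every interaction called 0 members, as did KO against WT in each culture with a cytokine, and under control 1 was called. The cause of the other changes was not tested, apart from the fewer genes that a higher minimum leaves. A minimum of 5 RPKM gave 5 calls with TGF-β in WT cells, 2 with TGF-β + IL-4 in WT and 1 in KO cells, 6 for KO against WT under control and 5 for the interaction with TGF-β. Without a minimum there were 0 with IL-4 and 0 with TGF-β + IL-4 in KO cells, 4 for KO against WT under IL-4, 1 under TGF-β + IL-4, 5 over the 4 cultures and 1 for the interaction with TGF-β + IL-4. All libraries in 1 fit gave 6 with TGF-β and 3 with TGF-β + IL-4 in WT cells, and 3 for the interaction with TGF-β.

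Leaving out 1 library gave 0 to 5 calls with IL-4 and 0 to 3 with TGF-β + IL-4 in KO cells, 7 to 11 for KO against WT under TGF-β, 0 to 15 under TGF-β + IL-4 and 4 to 15 over the 4 cultures, and 0 to 5 for the interaction with TGF-β + IL-4. With KO replicate 2 left out of both KO cultures, an alternative chosen after seeing the data, that interaction gave 4. Control and TGF-β cultures alone, also chosen after seeing the data, kept the count of KO against WT over the cultures within 1.5 times. The longer ISRE was found in 11 promoters.

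Replicate numbers are shared by the labels of the groups, but only 8 of 18 same-numbered pairs of WT libraries and 10 of 18 of KO libraries deviated together with a correlation over 0.1, so the numbers were not taken to pair them, although 9 of 12 libraries of each genotype correlated best with their own number. The replicate block gave 1 call with TGF-β + IL-4 in KO cells in place of 2, and moved no other count by over 1.5 times.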
